A study of Mus musculus with 22 samples.

Results

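The genes of the cytosolic ribosomal proteins were followed in the lumbar spinal cord of mice treated with an inhibitor of FKBP51. Per the paper, the tissue was the dorsal horn quadrant on the injured side, not the whole cord. Members were the genes whose symbol is Rpl, Rps or Rplp with a number and at most a short suffix, which leaves out pseudogenes and the Rps6k kinases. There were 83 such genes among 17306 in the table, 51 of the large and 32 of the small subunit, and all 83 were abundant enough to be tested.

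RNA was sequenced from 22 wildtype male C57BL6J mice aged 12 to 14 weeks, each given 1 mg of monoiodoacetate (MIA) in a knee joint to start joint pain. The drug was SAFit2, which binds the glucocorticoid receptor co-chaperone FKBP51 with selectivity, at 100 mg/kg in a phospholipid gel (VPG) that releases it slowly, and Vehicle mice received the gel alone. Early SAFit2 (5 mice) and Early Vehicle (6 mice) received gel on days -3 and 4, Late SAFit2 (5 mice) and Late Vehicle (6 mice) on days 20 and 27, and tissue was taken on day 30. Every group therefore carried the joint injury, and uninjured mice were not analysed here. The sample labels give day 3 in place of day -3, and mice labelled as treated with SAFit2 on the early schedule carry SAFit1 in their sample titles. The labels also name Early and Late as batches, so differences in level between early and late mice cannot be told apart from batch. Between 11352989 and 24433349 reads per library fell on genes.

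Ribosomal proteins and ribosomal RNA form the large subunit, which joins amino acids, and the small subunit, which reads the messenger RNA. Most of their messages begin with a run of C and T at the start site, the terminal oligopyrimidine (TOP) tract, through which the mTOR kinase controls their translation. Neurons and glia depend on them for protein synthesis in the cell body and, in neurons, in axons and dendrites.

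Levels were taken as the deposited log2 CPM (reads per gene scaled to library size). Averaged over 22 libraries, the members ranged from -1.31 to 9.30 with a median of 7.28. Per kb of transcript the large subunit was led by Rplp1 of the stalk (751 CPM per kb), Rpl26 (729) and Rpl9 (475). Its lowest genes were Rpl32l (2.87), Rpl39 (2.18) and Rpl3l (0.305), the last known as a form of heart and skeletal muscle. In the small subunit Rps3a1 (668 CPM per kb), Rps14 (631) and Rps6, the substrate of S6 kinase (589), were highest. Rps27l (32.9), Rps20 (31.8) and Rps4l (30.9) were lowest. The value of Rps20 rests on a transcript of 3706 bases, against a median of 774 bases for members, so its low rank depends on the transcript chosen. Rpl3l had between 0 and 26 reads per library and Rpl39 between 6 and 42, so their fold changes are imprecise.

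Many members have near-identical copies in the genome. A median of 47.4% of the 75-base windows of a member's transcript also occurred in transcripts of other genes, from 0% (Rpl3l and Rps3 among others) to 98.5% for Rps27. How reads that match several genes were counted is not given in the sources used here, so values of members with high shares are uncertain.

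The mean log2 CPM over all members was 7.30 ± 0.165 for Late SAFit2 (SD, n = 5) beside 7.21 ± 0.085 for Late Vehicle (n = 6). For Early SAFit2 it was 6.83 ± 0.215 (n = 5), beside 7.015 ± 0.289 for Early Vehicle (n = 6). Within each timing the SAFit2 and Vehicle libraries overlapped. The Late Vehicle libraries were closest together (7.09 to 7.35) and the Early Vehicle libraries were furthest apart (6.68 to 7.48). The mean log2 CPM of the large minus that of the small subunit lay between -0.495 and -0.284 in every library. Members took 1.47% of reads in Early SAFit2, 1.64% in Early Vehicle, 1.68% in Late SAFit2 and 1.78% in Late Vehicle. The late groups stand in the opposite order in log2 CPM, which the authors scaled by the trimmed mean of M-values. The neuronal RNA Bc1 took 7.73% ± 5.3 of reads from Late SAFit2 mice (SD, n = 5), beside 2.92% ± 2.39 from Late Vehicle mice (n = 6). Its part in the order of the late groups was not tested.

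**Figure D1:**
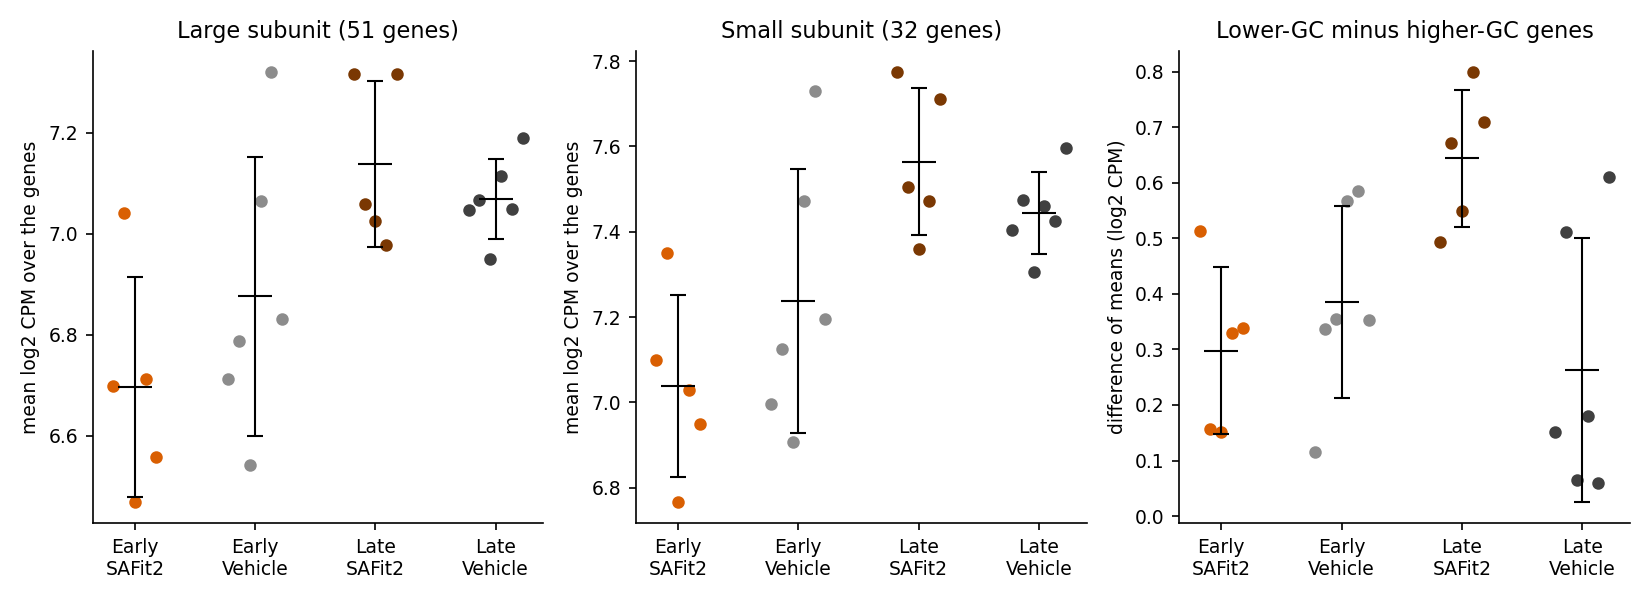
Mean log2 CPM over large and small subunit genes in each library (points), and the mean of the 41 members of lower GC content minus that of the 42 members of higher GC content (log2 CPM). Bars are group mean ± SD, n = 5 or 6 mice. In the third panel Late SAFit2 libraries lie between 0.49 and 0.80, and Late Vehicle libraries 2 and 6 (0.51 and 0.61) lie above the other Late Vehicle libraries.

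Late SAFit2 was compared with Late Vehicle to see what differed when gel was last given on day 27 and tissue taken on day 30. Ribosomal protein genes went in both directions: Rps27l and Rpl30 rose, while Rpl13, Rps4l, Rpl8, Rpl13a and Rps9 fell (limma, Benjamini-Hochberg adjusted p under 0.05 over all genes and at least 1.2-fold). These 7 of 83 members are 8.43%, against 12.1% of the 16765 genes tested. The 2 higher members compare with 5.33% of all genes and the 5 lower members with 6.72%. The share is not above that of all genes. At a nominal p under 0.05 there were 36 members (20 higher, 16 lower), 43.4% against 34.5% of all genes (15.6% higher, 19% lower). The median log2 fold change of the members was 0.14, beside -0.05 for all genes. It was 0.10 for the large and 0.18 for the small subunit. In bulk tissue, fewer cells of a type and less RNA per cell cannot be told apart.

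Rpl13, a protein of the large subunit, gave the largest fold change among the members that fell. Its log2 CPM in Late SAFit2 was 6.35, 5.50, 5.58, 5.03 and 5.28, and in Late Vehicle it ran from 5.52 over a median of 7.25 to 7.60. Late Vehicle replicates 2 and 6 (5.69 and 5.52) lay among the Late SAFit2 mice and the other 4 lay above them. The log2 fold change was -1.25 ± 0.36 (SE; limma adjusted p = 0.036), and 5 of 5 SAFit2 mice lay below the Vehicle mean. A two-sided exact permutation test of the group means gave p = 0.032. Of its windows 79.6% occur in other genes, so the value is uncertain.

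Rps4l, a copy of the small subunit gene Rps4x, shares only 8.11% of its windows. In Late SAFit2 its log2 CPM was 4.51, 3.93, 3.88, 4.09 and 4.04. In Late Vehicle the lowest was 4.22, the median 4.94 and the highest 5.62. Replicates 2 and 6 of Late Vehicle (4.29 and 4.22) were again the ones that overlapped with Late SAFit2. It fell by 0.81 ± 0.20 on the log2 scale (limma adjusted p = 0.032; below the Vehicle mean in 5 of 5 mice; exact permutation p = 0.024). Its counterpart Rps4x, which is on the X chromosome, had a log2 fold change of 0.14 ± 0.11 and was not called.

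Rpl8 is a large subunit protein near the peptidyl transferase centre. Its values in Late SAFit2 were 8.66, 7.91, 8.05, 7.78 and 7.99 log2 CPM, against 8.18, 8.77 and 8.91 (lowest, median, highest) in Late Vehicle. Replicate 1 of Late SAFit2 lay within the Vehicle range and the other 4 lay below it. The log2 fold change was -0.55 ± 0.15 (limma adjusted p = 0.034; 4 of 5 mice below the Vehicle mean; exact permutation p = 0.028). Rpl13a and Rps9 complete the members that fell and are named after their values were seen. Rpl13a, known for its part in silencing translation after interferon gamma, was at 8.66, 8.13, 8.04, 7.76 and 7.83 in Late SAFit2 and at 8.14, 8.80 and 8.91 in Late Vehicle. Its log2 fold change was -0.53 ± 0.17 (limma adjusted p = 0.045; 4 of 5 mice below the Vehicle mean). Rps9 of the small subunit was at 7.39, 7.11, 6.93, 6.67 and 6.95 log2 CPM in Late SAFit2 and at 7.05, 7.56 and 7.73 in Late Vehicle. It had a log2 fold change of -0.44 ± 0.14 (limma adjusted p = 0.044; 5 of 5 mice below the Vehicle mean). In both genes the groups overlapped.

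Of the members that rose, Rpl30 belongs to the large subunit. Its log2 CPM was 7.68, 7.63, 7.42, 7.87 and 8.09 in Late SAFit2, and 6.64, 6.94 and 7.58 (lowest, median, highest) in Late Vehicle. The groups overlapped through Late Vehicle replicates 2 (7.47) and 6 (7.58). It rose by 0.70 ± 0.22 on the log2 scale (limma adjusted p = 0.044; 5 of 5 mice above the Vehicle mean; exact permutation p = 0.017). Rps27l is a copy of Rps27 that is induced by p53. It was at 4.33, 4.4, 4.10, 4.46 and 5.14 log2 CPM in Late SAFit2 and at 3.29, 3.46 and 4.33 in Late Vehicle, where replicates 2 (4.33) and 6 (4.19) overlapped with SAFit2 mice. The log2 fold change was 0.81 ± 0.24 (limma adjusted p = 0.04; 5 of 5 mice above the Vehicle mean; exact permutation p = 0.026). Rpl22l1, a copy of Rpl22, had a similar log2 fold change (0.83 ± 0.29) but missed the threshold (limma adjusted p = 0.054; 5 of 5 mice above the Vehicle mean).

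**Figure D2:**
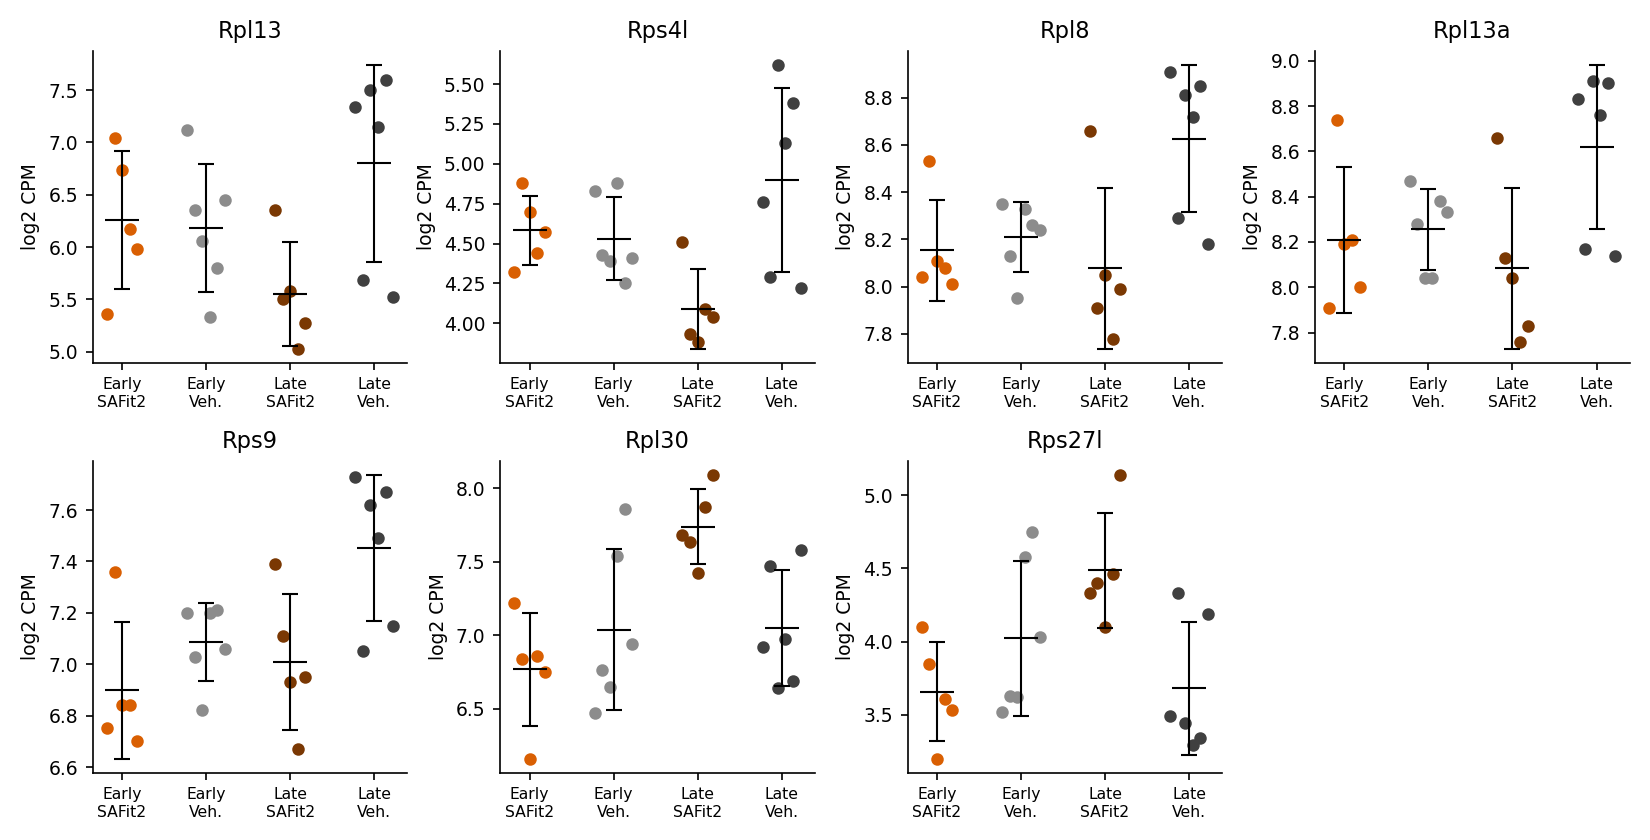
Log2 CPM of the 7 members called in the late comparison, in each library (points) with group mean ± SD (n = 5 or 6 mice). In Late Vehicle, replicates 2 and 6 stand apart from the other 4 mice, for example at 5.69 and 5.52 for Rpl13.

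In none of the 83 members did the late groups fail to overlap (1.71% of all genes did not overlap). The calls lay close to the threshold. None of the 83 was called without Late SAFit2 replicate 2, 4 or 5, or without Late Vehicle replicate 1, 3, 4 or 5. In these fits limma trend called 1 to 8 genes of the whole table. It gave 23 to 33 members at a nominal p under 0.05 (27.7% to 39.8%, against 26.0% to 31.4% of all genes). Leaving out Late Vehicle replicate 6 gave 33 members (39.8%, against 29.7% of all genes), Late Vehicle replicate 2 gave 21 (25.3% against 22.6%), Late SAFit2 replicate 1 gave 18 (21.7% against 21.1%) and Early Vehicle replicate 5 gave 17 (20.5% against 17.4%). Without Early SAFit2 replicate 4, Early Vehicle replicate 2 or Early Vehicle replicate 6 there were 4 (4.82%, against 7.09%, 7.63% and 7.61%). On the full data limma voom called 2 members, Rps4l and Rpl8 (2.41%, against 5.23% of all genes), so both rises lost their call. Limma called 0 members without a variance trend (0.37% of all genes) and 0 with only the late groups in the fit (0% of all genes). At a nominal p under 0.05 these fits gave 28 members (33.7%, against 33.4% of all genes) and 45 (54.2% against 31.3%). Centred on the median gene, 3 members were called higher and 4 lower. The share of called genes that were higher over the whole table went from 44.2% to 55.2% with that centring and to 34.5% with library sizes without Bc1 and mitochondrial genes.

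The direction in the late comparison followed the GC content of the transcript. Members ranged from 40.6 to 61.3% GC with a median of 51.8%. Across the 83 genes, which are not independent replicates, the log2 fold change and GC content had a Pearson correlation of -0.654, and across 16213 genes of the table -0.627. The same relation thus held in the whole table. In the early comparison the correlation had the other sign (0.511 for members, 0.114 for all genes). It was -0.632 and -0.494 for the mean of both timings, 0.651 and 0.566 for the early minus the late effect, 0.52 and 0.191 between the Vehicle groups, and -0.609 and -0.414 between the SAFit2 groups. Of the 41 members under the median GC content (a division made after the values were seen), 35 had a log2 fold change above 0 (median 0.25), and both higher calls, Rpl30 and Rps27l, were among them. Of the 42 others, 26 lay below 0 (median -0.12), with all 5 lower calls.

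The relation could also be followed library by library. Slopes of log2 CPM on GC content over all genes, relative to the mean of the libraries, were -0.06, -0.34, -0.23, -0.50 and -0.42 log2 units per 10 points of GC in Late SAFit2. Late Vehicle replicates 2 and 6 had slopes of -0.17 and -0.34, and the other 4 Late Vehicle mice had slopes of 0.26 to 0.51. Lower-GC members exceeded higher-GC members by 0.49 to 0.80 log2 units in Late SAFit2. The same difference was 0.51 and 0.61 in Late Vehicle replicates 2 and 6, and 0.06 to 0.18 in the other 4. Once each library's trend on GC content and length was removed, limma called 0 members and 0 of the 16213 genes tested in the late comparison, and 31 members had a nominal p under 0.05 (37.3%, against 13.7% of all genes). The members' median log2 fold change was then 0.05. Rpl13 stood at -0.98 (limma adjusted p = 0.17; 5 of 5 mice below the Vehicle mean before removal), Rps4l at -0.30, Rpl8 at -0.21, Rpl13a at -0.42, Rps9 at -0.31, Rpl30 at 0.44 and Rps27l at 0.40 (limma adjusted p = 0.22). Any treatment difference that itself follows GC content is lost in this removal, and what underlies the slopes was not tested.

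**Figure D3:**
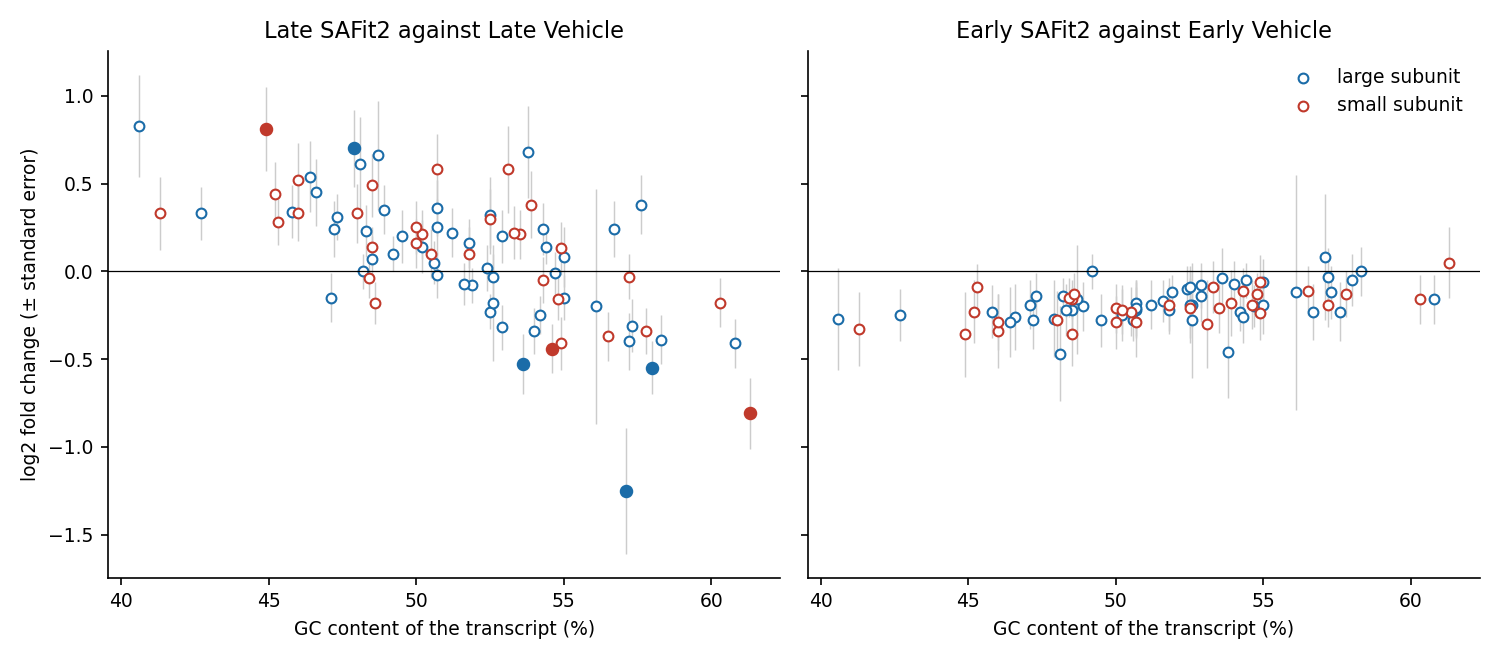
Log2 fold change (± SE) of the 83 members against the GC content of the transcript (%), SAFit2 against Vehicle in late (left) and early (right) mice. Filled points are members called by limma. Late values fall from left to right. The early values lie between -0.47 and 0.08 and rise with GC content.

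In early mice gel was last given on day 4 and tissue taken on day 30. By limma trend no member was called, and no gene in the table was (0% of 16765). Library quality weights called 13 genes, all lower and none a member. Limma voom gave 0 calls and 1 member at a nominal p under 0.05 (1.2%, against 2.52% of all genes). By limma trend 2 members (Rpl10 and Rpl10a) had a nominal p under 0.05, 2.41% against 2.48% of all genes (0.942% higher, 1.54% lower). The nominal count hung on single mice: it was 20 without Early SAFit2 replicate 2 (24.1%, against 4.59% of all genes), 19 without Early Vehicle replicate 3 (22.9% against 4.01%), 14 without Early Vehicle replicate 1 (16.9% against 3.82%), and 0 without Early SAFit2 replicate 3 or Early Vehicle replicate 4 or 5. The log2 fold changes lay mostly on 1 side: 80 of 83 were below 0, with a median of -0.19 (large subunit -0.19, small subunit -0.20) beside 0.01 for all genes. With the GC and length trend removed the median was -0.104. Members share libraries and vary together, so this count is no test. Early Vehicle replicates 4 and 5 had the highest member means of their group (7.22 and 7.48 log2 CPM), and Bc1 took 11.9% and 4.28% of their reads, against 0.942% to 1.86% in the other 4. Leaving out 1 library gave medians from -0.278 (without Early SAFit2 replicate 2) to -0.095 (without Early Vehicle replicate 5).

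Rpl10, which is on the X chromosome and completes the large subunit near its catalytic centre, had the lowest p. In Early SAFit2 its log2 CPM was 7.30, 7.92, 7.34, 7.54 and 7.49, and in Early Vehicle 7.49, 7.74 and 8.16 (lowest, median, highest). The ranges overlapped, with Early SAFit2 replicate 2 above the Vehicle median. The log2 fold change was -0.28 ± 0.12 (limma adjusted p = 1; 4 of 5 mice below the Vehicle mean; exact permutation p = 0.093). Of its windows 91.9% occur in other genes. Rpl10a, a distinct protein of the L1 stalk, had -0.23 ± 0.11, and 87.6% of its windows occur in other genes. Rps27a, which is made as a fusion with ubiquitin, had -0.36 ± 0.18, with 5 of 5 mice below the Vehicle mean. Only Rps4l (0.05 ± 0.20), Rpl13 (0.08 ± 0.36) and Rpl18 (0.00 ± 0.14) were not below 0. The value of Rpl18 was -0.01 with library sizes without Bc1 and mitochondrial genes. In none of the 83 members were the early groups apart, against 0.352% of all genes.

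**Figure D4:**
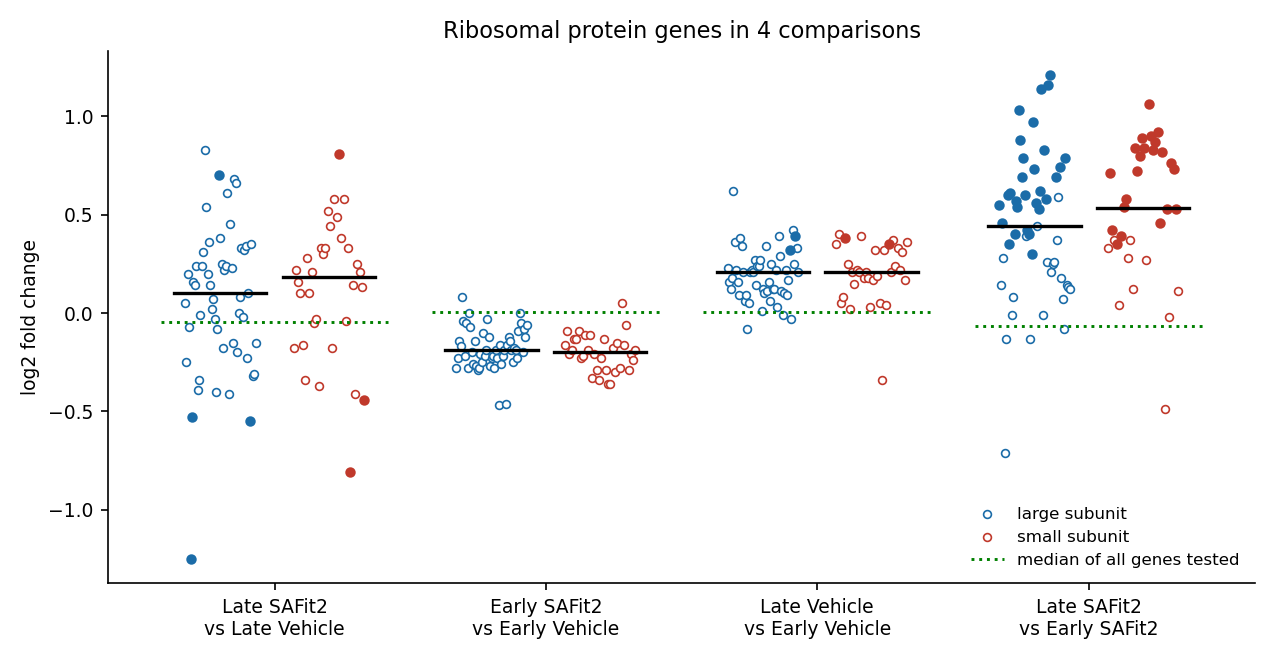
Log2 fold change of each member in 4 comparisons, large (blue) and small (red) subunit. Filled points are members called by limma, black bars the subunit medians, and dotted lines the median of all 16765 genes. The subunit medians are 0.10 and 0.18 (late), -0.19 and -0.20 (early), 0.21 and 0.21 (Vehicle) and 0.44 and 0.535 (SAFit2).

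Over both timings, at a nominal p under 0.05, the study's exploratory threshold for this effect, 13 members had a lower mean in SAFit2 mice and none a higher one. They are 15.7% of the members, against 13.2% of all genes, 7.18% lower and 6.03% higher. Besides the 5 lower members of the late comparison they included Rpl36, Rpl10a, Rps2, Rps15, Rplp0 and Rpl7a. All 13 were at or over the median GC content of the members. With the GC and length trend removed 12 members passed (14.5%, against 7.2% of all genes), 7 of them at or over that median. The late mice enter this mean too, so it is not separate from the late comparison. Without Early SAFit2 replicate 2 the count was 21 (25.3%, against 16.7% of all genes), and without Early SAFit2 replicate 1 or Late SAFit2 replicate 4 it was 7 (8.43%, against 7.83% and 10.5%). Library quality weights gave 35 members, 15 of them higher (42.2%, against 38.2% of all genes). Of all genes that passed, 45.6% were higher, and 34.2% with library sizes without Bc1 and mitochondrial genes.

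The early effect minus the late effect compared the SAFit2 difference between the schedules. The schedules also differ in the time from last gel to tissue and in batch, so these cannot be told apart. By limma no member and no gene of the table was called (0%), while 33 members had a nominal p under 0.05 (3 higher, 30 lower), 39.8% against 24.9% of all genes (14% higher, 10.9% lower). With limma voom the counts were 0 and 33 (39.8%, against 24% of all genes). The median difference was -0.33 log2 units beside 0.05 for all genes, that is, lower after early than after late treatment, and -0.175 with the GC and length trend removed. Rps27l (-1.17 ± 0.34), Rps27a (-0.85 ± 0.25) and Rpl30 (-0.97 ± 0.31) had the lowest p in that direction. In the other direction were Rps4l (0.86 ± 0.29), Rpl13 (1.33 ± 0.51) and Rpl8 (0.49 ± 0.21). The lowest limma adjusted p among members was 0.12, and for Rps27l 4 of 5 early SAFit2 mice lay below and 5 of 5 late SAFit2 mice above the mean of their Vehicle group. Without Late Vehicle replicate 6, 21 members were called (25.3%, against 15% of all genes), and with library quality weights 35 (42.2% against 30.3%).

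In Vehicle mice the gel carried no drug, and mice on the late schedule were compared with mice on the early one. Rps14, Rps3, Rpl7a and Rplp0 were higher in Late Vehicle. These 4 of 83 members are 4.82%, against 9.11% of all genes (3.29% higher, 5.82% lower). At a nominal p under 0.05 there were 21 members, all higher, 25.3% against 24.3% of all genes (11.2% higher, 13% lower). Most members leaned the same way: 79 of 83 were above 0, the median log2 fold change was 0.21, and all genes had a median of 0.01. Most marker lists of cell types leaned upward in this comparison. Above 0 were 6 of 6 astrocyte genes (2 called), 5 of 6 microglial genes (0 called) and 4 of 4 red cell genes (1 called). So were 5 of 5 endothelial (1 called), 5 of 5 ependymal (0 called), 5 of 8 neuronal (2 called) and 4 of 6 oligodendrocyte genes (1 called). All 4 meningeal genes were below 0 (0 called). Also below 0 were 3 of 4 genes of Schwann cells and dorsal root and 3 of 5 of skeletal muscle (0 called). The part of these cell types in the members' values was not tested. Rps14 of the small subunit was at 8.18, 8.41 and 8.66 log2 CPM (lowest, median, highest) in Early Vehicle and at 8.55, 8.78 and 9.06 in Late Vehicle. The upper end of the early range overlapped with the lower end of the late range. Its log2 fold change was 0.38 ± 0.11 (limma adjusted p = 0.029; 6 of 6 late mice above the early mean). Rps3, which lines the entry of the messenger RNA and shares no window with another gene, was at 8.33, 8.51 and 8.78 in Early Vehicle and at 8.79, 8.92 and 8.98 in Late Vehicle. These ranges did not overlap, and the log2 fold change was 0.35 ± 0.10 (limma adjusted p = 0.03; 6 of 6 late mice above all early mice). Rpl7a of the large subunit was at 6.68, 6.89 and 7.03 log2 CPM in Early Vehicle and at 7.05, 7.23 and 7.30 in Late Vehicle, ranges that did not overlap. Its log2 fold change was 0.32 ± 0.10 (limma adjusted p = 0.037; 6 of 6 late mice above all early mice). The share of all genes with separate ranges was not counted between the Vehicle groups. Rplp0 of the stalk, named after its values were seen, was at 7.56, 7.76 and 7.94 in Early Vehicle and at 7.80, 8.26 and 8.40 in Late Vehicle. These ranges overlapped, and the log2 fold change was 0.39 ± 0.12 (limma adjusted p = 0.039; 6 of 6 late mice above the early mean). Below 0 by log2 fold change were Rps27l (-0.34 ± 0.23), Rpl22l1 (-0.08 ± 0.27), Rpl7l1 (-0.03 ± 0.09, and 0.04 when centred on the median gene) and Rpl41 (-0.01 ± 0.16), none of them called.

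The Vehicle calls depended on scaling and on single mice. With library sizes without Bc1 and mitochondrial genes limma called 0 members, with 6 at a nominal p under 0.05 (all genes 10.6% and 24.5%), and the members' median was 0.10 while that of all genes moved from 0.01 to -0.10. Relative to all genes the members stayed higher. Centred on the median gene, 13 members were called (15.7%, against 12% of all genes), and with the GC and length trend removed 16 (19.3% against 16.4%). All of these were higher, against 7.15% and 8.25% of all genes. The share of all called genes that were higher was 36.1%, and became 59.5% with centring and 8.14% without Bc1 and mitochondrial genes. Leaving out Early Vehicle replicate 3 or Late Vehicle replicate 1, 4 or 5 left 0 member calls, with 5.63% to 7.67% of all genes called. Leaving out Early Vehicle replicate 1 or 2 left 1 (all genes 7.68% and 7.22%), and Early Vehicle replicate 4 or Late Vehicle replicate 3 left 2 (8.86% and 6.64%). Without Early Vehicle replicate 5 or Late Vehicle replicate 2 there were 8 (9.64%, against 6.43% and 9.13%), and without Late Vehicle replicate 6 there were 12 (14.5% against 14.8%).

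Between the SAFit2 groups the members differed most. In Late SAFit2 limma called 51 of 83 higher than in Early SAFit2 and none lower. This was 61.4%, against 20.5% of all genes (9.2% higher, 11.3% lower). By log2 fold change 75 members lay above 0 and 8 below. At a nominal p under 0.05 there were 62 members (61 higher, 1 lower), against 35.6% of all genes (15.5% higher, 20.1% lower). The median log2 fold change was 0.53 (large subunit 0.44, small subunit 0.535), beside -0.07 for all genes. The members named here were chosen after their values were seen. Rpl9 of the large subunit was at 8.10, 8.26, 7.80, 8.09 and 8.01 log2 CPM in Early SAFit2 and at 9.03, 8.77, 8.52, 8.79 and 9.09 in Late SAFit2. Every late value lay above every early value, and the log2 fold change was 0.79 ± 0.15 (limma adjusted p = 0.00094; 5 of 5 late mice higher). Rps27a was at 7.47, 7.66, 7.03, 7.39 and 7.35 in Early SAFit2 and at 8.37, 8.23, 7.98, 8.36 and 8.43 in Late SAFit2. These ranges did not overlap, and the log2 fold change was 0.90 ± 0.19 (limma adjusted p = 0.0021; 5 of 5 late mice above all early mice). Between the SAFit2 groups, too, the share of all genes with separate ranges was not counted. Rps27 had 1.06 ± 0.21, Rps6 0.76 ± 0.16 and Rps3a1 0.82 ± 0.18.

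With library sizes without Bc1 and mitochondrial genes 42 members were called, 41 of them higher (50.6%, against 23.1% of all genes), with a median of 0.40 while that of all genes moved from -0.07 to -0.19. With centring on the median gene 62 were called higher (74.7%, against 15.4% of all genes), and the median of all genes was 0.06. The share of all called genes that were higher went from 44.9% to 20.2% and 66.2% under these scalings. With the GC and length trend removed 48 members were called, all higher (57.8%, against 8.27% of all genes higher), with a median of 0.36. Early and late mice are separate batches in the labels, so this difference cannot be told apart from batch. It shares libraries with the comparisons within each timing. Marker genes of astrocytes, ependyma and microglia were also higher in Late SAFit2, as given below.

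Paralogues were set beside their counterparts in the late comparison. Beside Rps27l, which was called, Rps27 had a log2 fold change of 0.58 ± 0.20 (limma adjusted p = 0.055; 5 of 5 mice above the Vehicle mean), with 98.5% of its windows in other genes. Beside Rpl22l1, Rpl22 had 0.31 ± 0.13. Rpl7l1, which acts in assembly of the large subunit, had 0.10 ± 0.10, and Rpl7 0.34 ± 0.15. Rpl3l had -0.20 ± 0.67 and Rpl3 -0.08 ± 0.10. For Rpl3l the direction turned with a pseudocount of 0.5 (0.13) or 2 (0.12). Rpl10 had 0.05 ± 0.12. Rpl39, which lines the exit tunnel of the large subunit, had 0.66 ± 0.31 at very few reads. Of the paralogues and counterparts, only Rps27l and Rps4l passed the test.

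The stalk of the large subunit, which recruits translation factors, is made of Rplp0, Rplp1 and Rplp2. In the late comparison their log2 fold changes were -0.32 ± 0.13, -0.31 ± 0.15 and -0.15 ± 0.13, and none was called. With the GC and length trend removed they were -0.22, -0.08 and 0.03. Rplp1 was at 8.94, 8.44, 8.23, 8.21 and 8.52 log2 CPM in Late SAFit2 and at 8.43, 8.86 and 9.13 in Late Vehicle, overlapping ranges.

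Some ribosomal genes have symbols that fall outside the rule. Of Rpsa, Fau, Rpl36al and Rack1, none was called by limma in the late comparison. Rpl36al had 0.44 ± 0.18, while Rpsa had -0.31 ± 0.13 and Fau, the source of the small subunit protein eS30, -0.29 ± 0.12. The scaffold Rack1 had -0.18 ± 0.11. The GC and length removal turned Rpsa to 0.01 and left Fau at -0.01. In Late against Early Vehicle Rpsa was called higher by limma (0.40 ± 0.12).

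Among 21 genes of a list of translation factors and other genes known for TOP messages, whose tracts were not read here, 4 were higher and 1 lower in Late SAFit2, 23.8% against 12.1% of all genes. Eif3e rose by 0.61 ± 0.17, the histone chaperone Nap1l1 by 0.54 ± 0.16 and the poly(A)-binding protein Pabpc1 by 0.37 ± 0.11 on the log2 scale. In Late against Early SAFit2, 13 of the 21 were higher (61.9%, against 20.5% of all genes). Of 34 ribosome assembly genes, 2 were higher and 2 lower in Late SAFit2, 11.8% and so not above the 12.1% of all genes. Gnl3 rose by 0.63 ± 0.18, and Rrp9 (-0.83 ± 0.21) and Eif6 (-0.69 ± 0.19), which keeps the subunits apart, were lower. Of 19 genes of mTOR control, 3 were higher and 1 lower (21.1%, against 12.1% of all genes). In that list 12 lay below 0 (median -0.29, and 0.01 with the GC and length trend removed). At a nominal p under 0.05, 5 were higher and 7 lower (63.2%, against 34.5% of all genes). Rps6kb1, which encodes S6 kinase, rose by 0.55 ± 0.15 and the cap-binding protein Eif4e by 0.42 ± 0.12, while Eef2k, which slows elongation, stood at -0.40 ± 0.11. After the GC and length removal no gene tested, these included, was called in the late comparison, and the log2 fold changes were 0.10 for Eif3e, 0.24 for Nap1l1, 0.25 for Pabpc1, 0.34 for Gnl3, -0.31 for Rrp9, -0.29 for Eif6, 0.09 for Rps6kb1, 0.01 for Eif4e and -0.07 for Eef2k.

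Other complexes were read in the same way. Of 77 mitochondrial ribosomal proteins tested, 4 were higher and 5 lower in Late SAFit2 (11.7%, against 12.1% of all genes; median 0.07), with Mrpl38 at -0.78 ± 0.17, Mrpl12 at -0.65 ± 0.16 and Mrpl4 at -0.64 ± 0.16. Of 39 proteasome genes, 4 were higher and 2 lower (15.4%; median 0.04), with Psmc6 at 0.50 ± 0.13, Psmd14 at 0.45 ± 0.12 and Psma3 at 0.63 ± 0.18. With the GC and length trend removed Mrpl38 stood at -0.29, Mrpl12 at -0.37 and Mrpl4 at -0.15, while Psmc6 turned to -0.11 and Psmd14 and Psma3 stood at 0.08 and 0.19. Of 28 ribosomal protein pseudogenes tested, limma called 0. Their median was 0.29, and 10 had a nominal p under 0.05 (35.7%, against 34.5% of all genes). Rpl31-ps12 had 0.86 ± 0.29, Rps12-ps15 1.19 ± 0.43 and Rps27a-ps3 0.65 ± 0.26. Whether pseudogene reads came from the parent genes was not tested. In Late against Early SAFit2, 14 mitochondrial ribosomal proteins were higher and 4 lower (23.4% in all), and 14 proteasome genes (35.9%) and 10 pseudogenes (35.7%) were higher, beside the 51 members (61.4%) and 20.5% of all genes.

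Markers of the cell types of the cord were counted to check the tissue label. The neuronal list (8 genes, led by Snap25 at 3000 CPM) summed to 6719 ± 746 CPM in Late SAFit2 and 5973 ± 275 in Late Vehicle, and the astrocyte list (6 genes, led by Slc1a2) to 5191 ± 433 and 4733 ± 367 (SD, n = 5 and 6). Of these lists only the neuronal Slc32a1 (-0.55 ± 0.18) was called in the late comparison, and it stood at 0.12 with the GC and length trend removed. The sum of 5 oligodendrocyte genes was 10532 ± 979 CPM and 12464 ± 2314. Of these, Mag had a mean of 551 CPM and Mog of 247 over all libraries, with late log2 fold changes of -0.48 ± 0.17 and 0.26 ± 0.12 (not called). Microglia (6 genes, led by Csf1r) summed to 213 ± 17.2 and 222 ± 16.4 CPM, with no call. Endothelium (5 genes, led by Flt1) summed to 163 ± 20 and 185 ± 18.1, with Cldn5 lower (-0.53 ± 0.17, and 0.00 with the GC and length trend removed). Ependyma (5 genes, led by Foxj1) summed to 24.7 ± 11 and 43 ± 12.1, with Foxj1 lower (-0.77 ± 0.19, and -0.13 after that removal). In the early comparison 4 of these 5 ependymal genes were lower at a nominal p under 0.05, against 1.54% of all genes, and limma called none (median -2.43). Over both timings all 5 were lower at a nominal p under 0.05, against 7.18% of all genes (median -1.64). Red cell genes (4 in the table, led by Hba-a2) summed to 614 ± 210 and 706 ± 181, and meningeal genes (4, led by Dcn) to 173 ± 161 and 118 ± 24.1, with no call in either list.

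Skeletal muscle RNA varied most among Late SAFit2 mice, and its source was not tested. The 5 genes of this list, led by Tnnt3, summed to 2.88, 5.62, 196, 2.30 and 143 CPM in these 5 libraries and to at most 4.24 in Late Vehicle, and Tnnt3 was called (3.30 ± 1.08). Prx of Schwann cells (-1.70 ± 0.87) and Calca of dorsal root neurons (0.41 ± 0.40) were present at means of 190 and 12.6 CPM and were not called. Both values depended on single libraries: leaving out 1 library gave -2.41 to -0.23 for Prx and 0.06 to 0.69 for Calca. Prx was at -0.36 log2 CPM in Late SAFit2 replicate 2 and at 5.38 to 8.37 in the other Late SAFit2 mice. No gene of any marker list was at 0 in all libraries. Between the SAFit2 groups the astrocyte list had 4 of 6 genes higher in Late SAFit2, the ependymal list 3 of 5 and the microglial list 2 of 6, against 9.2% of all genes. The part of these cell types in the members' values was not tested.

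The start sites of the members were read in RefSeq promoters (GRCm38.p6), since TOP tracts are known for this family. Of 83 members 61 were matched, with 73 start sites, and a run of at least 5 C or T that covers the annotated start base, read on the strand of the gene, was present in 21 of them (34.4% of genes, 28.8% of start sites). The same was found in 11.8% of 27025 genes of the promoter table and 10.1% of their start sites. The median run was 10 bases in members and 7 in all promoters. Shown are 7 of the members called in the late comparison or among Vehicle mice, each start with 12 bases on either side of the start base, in capitals the run of C and T over that base.
Rps9 (chr7:3704029-3704053, plus strand): gccttgTCTCTCTTTgtctcgggcc
Rpl13 (chr8:123102338-123102362, plus strand): cctttcgcctgaTTTTgattggcgt
Rpl13a (chr7:45128733-45128757, minus strand): accctgcgacaagacctcctccttt
Rps27l (chr9:66946074-66946098, plus strand): ctcctccccgccgcctctatcccgg
Rps27l (chr9:66946401-66946425, plus strand): atgggcttcagggtcactaacgggc
Rpl7a (chr2:26910795-26910819, plus strand): CCCTCTTCTTTCTTTCTCCagcagc
Rplp0 (chr5:115559455-115559479, plus strand): ttcgggtttcgaggaccgcctggtt
Rps3 (chr7:99483697-99483721, minus strand): gcaagggtcgccgcgctgcgcggcg
The run was 9 bases long in Rps9 and 4 in Rpl13, which is under the minimum. In Rpl7a it was 21, the longest among members, and begins upstream of the window shown. These lengths include bases before the start base, which a message starting there would not hold. From the start base onward the run was 3 bases in Rps9, 4 in Rpl13 and 7 in Rpl7a. The shares and median runs above also count bases on both sides of the start. Rpl13a, Rps27l, Rplp0 and Rps3 had none over the annotated base. The annotated base may differ from the start used in the cord, which was not measured.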

How the data were processed

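RNA from dorsal horn quadrants of the lumbar spinal cord of 22 mice was sequenced as stranded mRNA libraries. Per the labels, the authors aligned reads to mm10 with HISAT2, counted them per gene, scaled them by the trimmed mean of M-values in edgeR and deposited log2 CPM (-3.154 to 17.702). Whole reads could be recovered for 100.0% of values (tolerance 0.02 reads). Tests covered the 16765 genes that reached log2 CPM -1 in 5 or more libraries, by limma 3.58.1 (trend, 1 mean per group) in R 4.3.3, and limma voom, which called 876 genes in the late comparison, served as an alternative. Groups of 5 and 6 mice were also compared by exact two-sided permutation over all divisions of the mice. GC content and length came from GENCODE transcripts (96.5% of genes), with loess span 0.5 for trend removal. Named genes were the 3 members with the lowest p in each direction of 4 comparisons, the 3 most and least abundant per subunit and kb, paralogues, stalk proteins, ribosomal genes outside the rule and up to 3 genes per other list. Results of some genes are not reported here, which was decided after they were computed. The members and lists were chosen with earlier results of these data known. Divisions by GC content were chosen after seeing the data. Python 3.11.15, numpy 2.4.6, pandas 2.3.3 and matplotlib 3.10.9 were used.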

Additional observations from a re-analysis of the deposited data

Results flagged for a closer look

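Of 156 group and measure pairs, 8 held a mouse far from the others of its group, where the gap to the nearest mouse was a large share of the group's range. Chance gives such a mouse in about 1 in 20 groups. Early SAFit2 replicate 2 was high for 5 genes, which share that library: Rpl8 (share 0.794; 8.53 log2 CPM against a median of 8.06 in the others), Rpl7a (0.966; 7.18 against 6.68) and Rplp1 (0.725; 8.88 against 8.21). The same mouse was high for Fau (0.762) and Rack1 (0.89). Late SAFit2 replicate 1 was high for Rpl3 (0.747; 9.63 against 9.26). Late Vehicle replicate 6 was high for Rpl32l (0.648; 1.42 against 0.35), a gene of 8 to 32 reads. Late Vehicle replicate 2 was low for Rplp2 (0.788; 6.52 against 6.81). The cause was not tested.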

How the results depend on the processing

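The late count of 7 members was 2 with limma voom, 0 without a variance trend, 0 with only the 2 groups compared, 40 with library quality weights, 0 with the GC and length trend removed, and 16 with a replicate block. With the GC and length trend removed and the block together it was 0. Of all genes the same fits called 5.23%, 0.37%, 0%, 38.1%, 0%, 18.8% and 0%. For these counts of 0, limma gave 28, 45, 31 and 33 members at a nominal p under 0.05. These are 33.7%, 54.2%, 37.3% and 39.8% of members, against 33.4%, 31.3%, 13.7% and 14.0% of all genes. Correlations of residuals between mice of the same number ran from -0.236 to 0.317, so the numbers do not pair the mice and the block is given only here. The count for the mean effect was 35 with quality weights (13 in the report), and that for the difference also 35 (0 in the report). The count of 4 between the Vehicle groups was 13 when centred on the median gene, 0 with library sizes without Bc1 and mitochondrial genes (6 at a nominal p under 0.05), 2 without a variance trend, 45 with quality weights, 2 with the block, 16 with the GC and length trend removed and 17 with that and the block. Of all genes these fits called 12%, 10.6%, 8.11%, 30.2%, 8.56%, 16.4% and 16%. The counts for the early and SAFit2 timing comparisons stayed within 1.5 times, and member medians moved by less than the spread between mice, under all 14 alternatives that could be run.

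Leaving out 1 library at a time gave 0 to 33 members and a median of 0.091 to 0.182 (late), 0 to 0 and -0.278 to -0.095 (early), 7 to 21 and -0.07 to 0.025 (mean), 0 to 21 and -0.414 to -0.24 (difference), 0 to 12 and 0.133 to 0.307 (Vehicle) and 37 to 54 and 0.444 to 0.578 (SAFit2). 

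Of 3240 values for 93 single-gene results, 2735 kept direction and side of the threshold, 313 no longer passed it, 70 turned in sign and the others newly passed it. Turned log2 fold changes with the GC and length trend removed, alone and then with the block, were 0.14 and 0.14 for Rpl22l1 (Vehicle), and in the late comparison -0.01 and -0.02 for Rpl26, 0.09 and 0.10 for Rpl3l, -0.07 and -0.08 for Rps20, -0.04 and -0.04 for Rpl10, -0.03 and -0.03 for Rps4x, 0.03 and 0.04 for Rplp2, 0.01 and 0.03 for Rpsa, -0.11 and -0.12 for Psmc6, 0.12 and 0.12 for Slc32a1, 0.01 and 0.02 for Aldh1l1, 0.00 and 0.01 for C1qa, -0.11 and -0.07 for P2ry12, 0.03 and 0.02 for Hba-a2, -0.22 and -0.36 for Lum and 0.17 and 0.16 for Slc6a13. Hba-a1 turned to 0.01 without the block, and Eif4e (-0.01) and Cldn5 (0.01) with it. The block alone turned the early values of Rps4l (-0.03), Rpl13 (-0.03) and Rpl18 (-0.03). Quality weights turned Rpl13 early (-0.10), Rpl18 early (-0.01), Rpl3l late (0.12) and Rpl10 late (-0.01). Rpl18 early was -0.01 with library sizes without Bc1 and mitochondrial genes, Rpl7l1 between the Vehicle groups 0.04 when centred, Lum -0.12 with voom, and Rpl3l 0.13 and 0.12 with pseudocounts of 0.5 and 2. Leaving out 1 library gave -0.03 to 0.12 for Rps4l early, -0.12 to 0.30 for Rpl13 early, -0.10 to 0.07 for Rpl18 early, -0.27 to 0.12 for Rpl22l1 between the Vehicle groups, and in the late comparison -0.30 to 0.00 for Rpl32l, -0.73 to 0.27 for Rpl3l, -0.34 to 0.05 for Hba-a2, -0.39 to 0.91 for Lum and -0.26 to 0.20 for Slc6a13. The cause was not tested. A fit on only the genes with a GC value, chosen after seeing the data, gave a late count of 7. Members with few reads (Rpl3l, Rpl39, Rpl32l) are imprecise.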
